A study of Mus musculus with 16 samples.

Results

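Hyaluronan is a long, unsulfated sugar polymer that is made at the plasma membrane and released into the matrix, and 8 genes of its synthesis, binding and gliding partners were followed here: *Has1*, *Has2*, *Has3*, *Vcan*, *Hapln1*, *Tnfaip6*, *Cd44*, and *Prg4*. They were picked by name as a gene group, with no threshold on their values but with earlier results of these data known. All 8 were found by their Ensembl identifiers both among the 29629 genes of the single-cell table and among the 47729 genes of the tendon table. The single cells came from *ScxGFP* iPSCs, a line reprogrammed from fibroblasts of *ScxGFP* transgenic mice, which were differentiated into mesodermal cells (T0) and then grown with TGF-β2, with collection on day 3 (T3), day 6 (T6), and day 9 (T9). Each time point had 3 plates of 384 wells, and each plate was used as a sample. All plates derive from a single reporter line, and T0 cells received no TGF-β2. T0 cells were detached with trypsin alone, whereas collagenase was added at the later time points. The series holds no plates grown without TGF-β2 to T3, T6, or T9. Treatment, days in culture, and detachment therefore cannot be told apart in comparisons with T0. Separately, RNA was sequenced in bulk from the Achilles tendon of 2-week-old *Scx* wild-type (Wt) and homozygous *Scx* knockout (homoKO) littermates, 2 samples per genotype. *Scx* encodes Scleraxis, a basic helix-loop-helix transcription factor of tendon cells, and the part of the gene removed by the knockout allele is not given in the sources used here.

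The HAS enzymes encoded by *Has1*, *Has2*, and *Has3* join glucuronic acid and N-acetylglucosamine into hyaluronan. Versican (*Vcan*), a large chondroitin sulfate proteoglycan, binds the chain, and the link protein encoded by *Hapln1* locks this bond. *Tnfaip6* encodes TSG-6, a secreted protein that transfers heavy chains from inter-alpha-inhibitor to hyaluronan, and *Cd44* encodes the main cell surface receptor of the polymer. Lubricin, the product of *Prg4*, is a mucin-like glycoprotein that lubricates cartilage and tendon surfaces. In tendon, hyaluronan and lubricin are known mostly from the gliding surfaces and the spaces between fascicles.

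The members lie on 6 chromosomes of the mouse genome (GRCm38). *Hapln1* (ENSMUSG00000021613, chr13:89539796-89611652, plus strand) and *Vcan* (ENSMUSG00000021614, chr13:89655312-89742509, minus strand) are neighbors whose 3′ ends face each other across 43.7 kb. *Cd44* (ENSMUSG00000005087, chr2:102811141-102901665, minus strand) and *Tnfaip6* (ENSMUSG00000053475, chr2:52038009-52056686, plus strand) are on chromosome 2, and *Prg4* (ENSMUSG00000006014, chr1:150449412-150466165, minus strand) is on chromosome 1. *Has1* (ENSMUSG00000003665, chr17:17843323-17855205, minus strand), *Has2* (ENSMUSG00000022367, chr15:56665627-56694539, minus strand), and *Has3* (ENSMUSG00000031910, chr8:106870242-106884566, plus strand) are on separate chromosomes. Exons on the opposite strand overlap 182 exonic bases of *Has2* (*Has2os*) and 204 of *Prg4* (*Tpr*). For *Has3* the overlap is 704 bases summed over 2 annotated genes, both named *Chtf8*, and bases under both would be counted for each. The strand setting of the counting is not given in the sources used here, so reads in these overlaps may belong to either gene.

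Promoter sequences from RefSeq (GRCm38.p6) were found for 5 of the 8 members, *Vcan*, *Hapln1*, *Has1*, *Cd44*, and *Tnfaip6*. Shown are the 250 bases before the start site of *Vcan* (chr13:89742513-89742762, minus strand) and *Cd44* (chr2:102901666-102901915, minus strand), and the 146 bases of *Tnfaip6* that come before its first annotated exon (chr2:52037863-52038008, plus strand). These genes are shown because their levels differed between cells with and without *Tnmd*, or between T0 and the treated plates. *Hapln1* also differed from T0, but all 250 bases of its window are annotated as exonic, so it is not shown. Capitals mark the E-box CANNTG, the general site of basic helix-loop-helix factors, the Smad box CAGAC, and the AP-1 site TGANTCA, each searched on both strands.
*Vcan*: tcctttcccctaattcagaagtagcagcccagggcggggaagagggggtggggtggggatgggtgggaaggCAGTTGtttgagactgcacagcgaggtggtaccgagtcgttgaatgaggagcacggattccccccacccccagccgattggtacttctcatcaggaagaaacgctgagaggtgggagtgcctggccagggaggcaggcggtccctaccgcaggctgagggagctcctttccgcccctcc
*Cd44*: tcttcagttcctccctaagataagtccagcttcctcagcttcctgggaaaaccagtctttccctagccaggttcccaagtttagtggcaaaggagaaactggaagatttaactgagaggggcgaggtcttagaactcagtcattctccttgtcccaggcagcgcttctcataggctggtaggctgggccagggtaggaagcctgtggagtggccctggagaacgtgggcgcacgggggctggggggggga
*Tnfaip6*: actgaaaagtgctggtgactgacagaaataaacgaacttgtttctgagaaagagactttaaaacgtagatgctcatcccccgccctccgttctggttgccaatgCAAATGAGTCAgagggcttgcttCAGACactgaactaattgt
The *Vcan* window held 1 E-box and neither of the other motifs. The *Cd44* window held no match. The *Tnfaip6* stretch shown stops 104 bases short of the start site. It held an E-box and an AP-1 site that overlap, so that they form a single capital run, and a Smad box 123 bases before the start site. Another E-box (CAGATG), 23 bases before the start site, lies in the 104 bases not shown. These letters are common: among 27025 promoter windows of 250 bases, 66.0% held an E-box, 42.1% a Smad box, and 6.87% an AP-1 site. Those windows are longer than the *Tnfaip6* stretch shown. A match is a description of the letters and was not tested as a binding site.

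After filtering for wells with at least 200 detected genes, 4594 of 4608 wells remained, with 1921125 to 4657093 UMIs per plate, and the tendon samples held 11188270 to 12398560 counted reads. Levels are given as CPM, the UMIs (or reads) of a gene per 1000000 of the same plate or sample. A gene was called at an adjusted p under 0.05 in edgeR's quasi-likelihood test, with adjustment over all genes tested. Fold changes are from that fit, whose TMM scaling raised all genes by 0.23 (T3 versus T0) and 0.49 (T9 versus T0) on the log2 scale relative to plain CPM. Tenocyte markers (8 genes, including *Scx*, *Mkx*, and *Tnmd*) summed to 460 to 541 CPM in T0 plates and 13164 to 39802 CPM in T9 plates. Most of the T9 sum was *Col1a1* and *Col1a2*. In T9 plate 3 they measured 20730 and 18147 CPM, against 160 for *Scx*, 27.2 for *Mkx*, and 72.0 for *Tnmd*. *Scx* itself was 2.92-fold lower at T9 than at T6 (adjusted p = 0.0146). Plates also fell into 2 kinds by the share of reads that the study's mapping summary lists without an annotated feature: the 3 T0 plates, T3 plate 2, T6 plates 1 and 3, and T9 plate 3 had more, and the other 5 plates had fewer. In a fit with this division as a term, 33.9% of 13372 genes were called between the kinds of plate. The division is therefore given beside the members that it moves with, and beside some of the other genes. Of the 8 tenocyte markers, 3 were higher and 3 lower in plates with more such reads, with *Col1a1* 1.88-fold higher (adjusted p = 0.000206). The lower ones were *Mkx* (1.74-fold, adjusted p = 0.00313), *Tnmd* (1.87-fold, adjusted p = 0.0183), and *Scx* (1.39-fold, adjusted p = 0.0254).

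**Figure D1:**
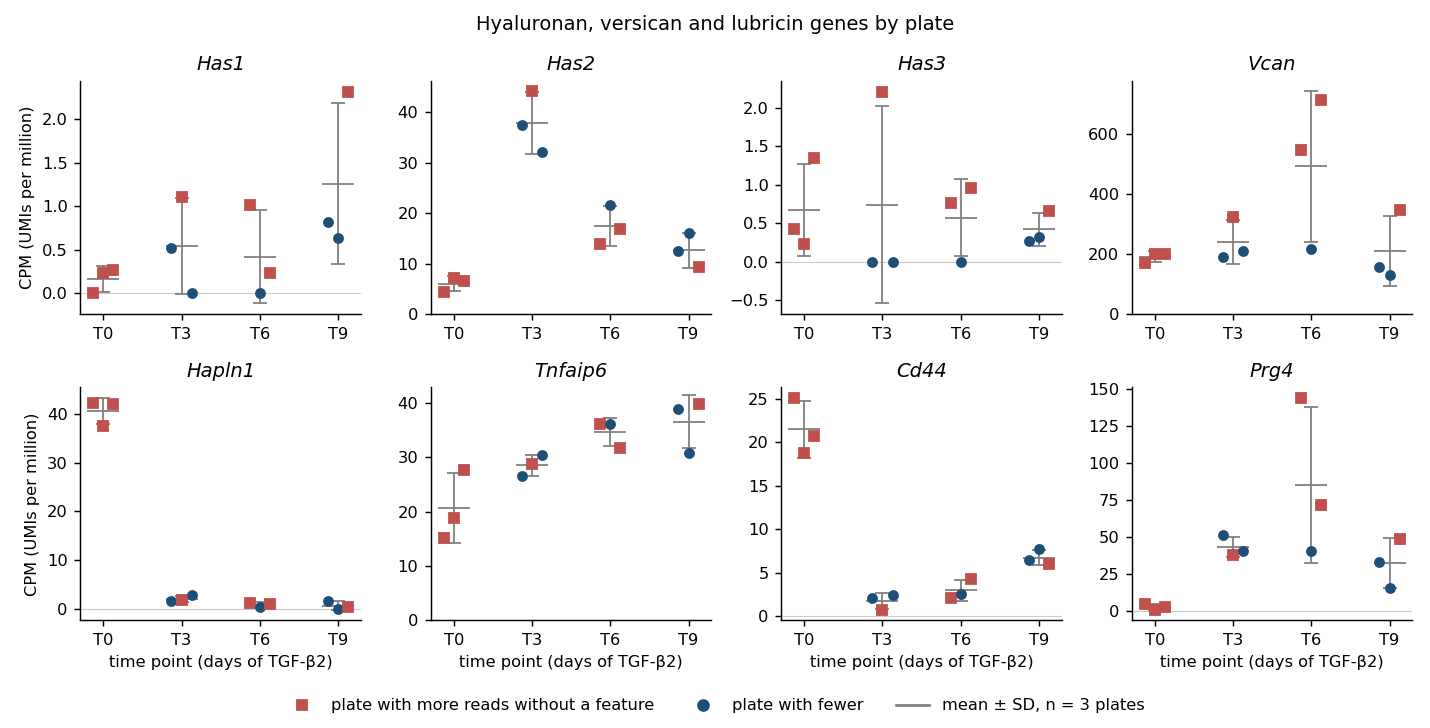
CPM (UMIs of the gene per 1000000 UMIs of the plate, vertical axes) of the 8 genes in each plate at T0, T3, T6, and T9, with squares for plates with more reads without a feature, circles for plates with fewer, and gray bars for the mean ± SD of 3 plates. *Hapln1* and *Cd44* were high at T0, *Has2* was highest at T3, *Prg4* rose from T0, and the *Vcan* squares lie above the circles at T3, T6, and T9.

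From T0 to T3, *Has2* and *Prg4* rose and *Hapln1* and *Cd44* fell, which makes 4 of the 6 members tested, where 33.2% of all 13372 genes tested were called. By T9, *Tnfaip6* had also risen against T0, which makes 5 of 6 members, where 45.2% of all genes were called. The steps in between called 0 of 6 members each, with 4.24% of all genes called between T6 and T3 and 1.62% between T9 and T6; before adjustment, p was under 0.05 for *Vcan*, *Has2*, and *Prg4* in T6 versus T3 and for *Cd44*, *Vcan*, and *Prg4* in T9 versus T6. DESeq2 called *Vcan* and *Has2* in the former and *Cd44* and *Vcan* in the latter. *Has1* and *Has3* did not pass the filter on low counts in the plates and were not tested. Since the T3 and T9 comparisons share the T0 plates, their calls are not independent of each other.

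*Has2*, the main hyaluronan synthase of embryonic mesenchyme, measured 4.29, 7.18, and 6.46 CPM in T0 plates 1, 2, and 3 and 37.5, 44.2, and 32.1 CPM at T3. It was 13.8, 21.6, and 16.9 CPM at T6 and 12.5, 16.1, and 9.29 CPM at T9. The T3 plates were the highest and the T0 plates the lowest, without overlap, and the T6 and T9 plates overlapped each other. *Has2* rose 7.37-fold from T0 to T3 (log2 fold change 2.88, SE 0.35, adjusted p = 3.57e-05, edgeR quasi-likelihood test) and stood 3.04-fold above T0 at T9 (log2 1.60, SE 0.36, adjusted p = 0.00259). The difference between T6 and T3 was -1.07 on the log2 scale (SE 0.32) and was not called (adjusted p = 0.0854). With the kind of plate as a term it was -0.93 with an adjusted p of 0.0217, and the term itself gave *Has2* a log2 difference of -0.59 (SE 0.22, adjusted p = 0.0435), lower in plates with more reads without a feature.

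*Has2* UMIs came from 58 of 1147 T0 cells, 168 of 1151 T3 cells, 120 of 1149 T6 cells, and 79 of 1147 T9 cells. As means over 3 plates, 5.06% ± 1.48 (SD) of T0 cells and 14.6% ± 3.67 of T3 cells held a *Has2* UMI. Cells were not equally deep, with a median of 10175 UMIs at T0 and 5703 at T3. To compare equal depths, cells were cut to 3000 UMIs, and the 293 cells with fewer were left out, which kept 1071 T0 cells, 1038 T3 cells, 1081 T6 cells, and 1111 T9 cells. Of these, 1.67% ± 0.991 of T0 cells and 8.54% ± 1.20 of T3 cells still held a *Has2* UMI, followed by 4.51% ± 1.27 for T6 and 3.51% ± 0.683 for T9. At a few UMIs per cell, a cell without a *Has2* UMI is not shown to lack the transcript.

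The other 2 synthases were near the limit of detection. Over its 3 plates, *Has1* had 2 UMIs at T0, 4 at T3, and 5 at T6, with 12 UMIs by T9. The T9 level of 1.22 CPM had an exact Poisson interval of 0.632 to 2.14 (95%), and the T0 level of 0.158 CPM one of 0.0191 to 0.569, so the intervals did not overlap, but of the 12 UMIs at T9, 7 came from plate 3 and they lay in 5 cells. *Has3* had 8, 6, 7, and 4 UMIs at T0, T3, T6, and T9, at 0.630, 0.799, 0.622, and 0.408 CPM, with intervals that overlapped. These intervals cover counting error alone. Without the filter on low counts, *Has1* and *Has3* were not called in any of the 4 time comparisons (adjusted p = 0.0704 for *Has1* in T9 versus T0).

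The genes that feed the synthases were tested as a list. Of 7 genes for the sugar precursors of hyaluronan, all tested, 4 rose and none fell from T0 to T3, and the same counts held for T9 versus T0, where 33.2% and 45.2% of all genes were called. *Ugdh*, which makes UDP-glucuronic acid, rose 2.96-fold to T3 (adjusted p = 8.4e-05), *Gfpt1*, which controls entry into the hexosamine pathway, rose 2.04-fold (adjusted p = 0.000885), and *Uap1*, which makes UDP-N-acetylglucosamine, rose 2.30-fold (adjusted p = 0.00108). By kind of plate, *Ugdh* was 1.37-fold lower (adjusted p = 0.00406) and *Gfpt1* higher (log2 0.38, adjusted p = 0.00635) where more reads lacked a feature. Of 5 genes for hyaluronan breakdown, 3 were tested, and *Hyal2*, a hyaluronidase, fell 1.59-fold both to T3 (adjusted p = 0.00905) and to T9 (adjusted p = 0.00614).

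*Vcan* was the member with the most UMIs and the one with the lowest adjusted p for the kind of plate. It measured 169, 199, and 200 CPM in T0 plates 1, 2, and 3; 188, 322, and 208 at T3; 544, 217, and 711 at T6; and 155, 128, and 344 at T9. The 4 highest values were those of T6 plates 3 and 1, T9 plate 3, and T3 plate 2, all plates with more reads without a feature, and the ranges of T3, T6, and T9 overlapped. In the fit with the kind of plate as a term, *Vcan* was 1.69-fold higher in plates with more such reads (log2 0.76, SE 0.15, adjusted p = 0.000782). Without this term, no step was called: *Vcan* differed by 0.54 (SE 0.30, adjusted p = 0.189) between T3 and T0, by 1.02 (SE 0.30, adjusted p = 0.0788) between T6 and T3, and by -1.0 (SE 0.30, adjusted p = 0.119) between T9 and T6, all on the log2 scale.

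With the term, all of these steps were called for *Vcan*, at 1.04 (adjusted p = 0.000419), 0.70 (adjusted p = 0.0165), and -0.73 (adjusted p = 0.0194), and so was T9 versus T0, at 1.00 (adjusted p = 0.000286). Within plates with more such reads, the mean was 190 CPM at T0 (3 plates), 322 at T3 (1 plate), 627 at T6 (2 plates), and 344 at T9 (1 plate). Within plates with fewer, it was 198 CPM at T3 (2 plates), 217 at T6 (1 plate), and 142 at T9 (2 plates). T0 had no plate with fewer such reads, so a difference between the kinds of plate cannot be seen at T0. The fit with the term assumes the same difference at all time points. On plain CPM the mean at T9 was 209 ± 117 (SD, n = 3) against 190 ± 17.9 at T0, and the T9 plates of the kind with fewer such reads were below all T0 plates.

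*Hapln1* went in the other direction. It had 197, 162, and 156 UMIs in T0 plates 1, 2, and 3, but 3, 5, and 8 at T3, 5, 1, and 4 at T6, and 6, 0, and 1 at T9. The T0 plates stood apart from the other 9, and T9 plate 2 without a UMI allows up to 0.963 CPM (3 counts). The mean was 40.6 ± 2.67 CPM at T0 and 2.06 ± 0.642 at T3 (SD, n = 3). *Hapln1* fell 16.2-fold from T0 to T3 (log2 -4.02, SE 0.47, adjusted p = 2.33e-05) and was 38.9-fold lower at T9 than at T0 (log2 -5.28, SE 0.53, adjusted p = 2.93e-06). The size of the latter rests on 7 T9 UMIs, of which 6 came from plate 1 and 5 from a single cell, and without that plate it was -7.33 on the log2 scale. Cells with a *Hapln1* UMI numbered 227 at T0 and 12, 8, and 3 at T3, T6, and T9. Of the 227 T0 cells, 155 also held a *Vcan* UMI (68.3%, where 688 of all 1147 T0 cells held one), and they were slightly deeper, with a median of 11341 UMIs against 10175.

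*Cd44* showed a like early fall and a later partial return. It measured 25.1, 18.8, and 20.7 CPM at T0, 2.08, 0.737, and 2.44 at T3, 2.05, 2.55, and 4.28 at T6, and 6.52, 7.71, and 5.97 at T9. T0 plates were above all others, and T9 plates were above all T3 and T6 plates. *Cd44* fell 10.3-fold to T3 (log2 -3.37, SE 0.45, adjusted p = 7.06e-05) and remained 2.23-fold lower at T9 than at T0 (log2 -1.16, SE 0.36, adjusted p = 0.0174). The call at T9 was lost without T0 plate 1 (-1.06, adjusted p = 0.0675), T0 plate 3 (-1.17, adjusted p = 0.0502), or T9 plate 3 (-0.95, adjusted p = 0.0569). The difference between T9 and T6 was 1.44 (SE 0.41) and was not called (adjusted p = 0.101). At T9, 66 UMIs lay in 28 cells, against 275 UMIs in 146 cells at T0.

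T0 plates also held more transcripts of pluripotent and epithelial cells. Summed over 5 genes, pluripotent markers measured 308 to 642 CPM at T0 and 83.6 to 125 at T3, and 4 epithelial markers measured 274 to 395 CPM at T0 and 18.2 to 46.4 at T3. At T9 the sums were 0 to 214 CPM (pluripotent) and 12.9 to 83.2 CPM (epithelial). From T0 to T3, 1 of 4 tested pluripotent markers (*Utf1*) and 4 of 4 epithelial markers were called lower, where 33.2% of all genes were called. At T0, 722 of 1147 cells held a UMI of a pluripotent marker, *Epcam*, or *Cdh1*, and these cells held 71.6% of all T0 UMIs, 68.7% of the *Hapln1* UMIs, 73.8% of the *Cd44* UMIs, and 84.4% of the 32 *Prg4* UMIs. For *Vcan*, *Has2*, and *Tnfaip6* the shares were 65.4%, 68.0%, and 65.1%. With such cells left out at all time points, a choice made after the data were seen, *Hapln1* still fell to T3 (log2 -4.31, adjusted p = 5.07e-05) and so did *Cd44* (-2.99, adjusted p = 0.000723), whereas *Cd44* at T9 against T0 was no longer called (-0.97, adjusted p = 0.0996).

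Among other receptors, *Layn*, which encodes the hyaluronan receptor layilin, rose 7.99-fold from T0 to T3 (adjusted p = 0.000219) and was 18.6-fold above T0 at T9 (adjusted p = 3.48e-06). Both sizes rest on few T0 UMIs, with 3, 4, and 8 in plates 1, 2, and 3. *Hmmr*, whose product also binds hyaluronan and is known from the mitotic spindle, was lower at T6 than at T3 by 2.49-fold (adjusted p = 0.00213) and lower at T9 than at T0 by 1.80-fold (adjusted p = 0.00319). These were the 2 genes tested of 5 in the list. Of 6 other link proteins and lecticans, 1 was tested in plates and was not called; aggrecan (*Acan*) had at most 6 UMIs in a plate.

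*Tnfaip6* rose gradually. It measured 15.2, 18.8, and 27.7 CPM at T0, 26.5, 28.7, and 30.3 at T3, 36.1, 36.0, and 31.6 at T6, and 38.8, 30.8, and 39.8 at T9. All T6 and T9 plates were above all T0 and T3 plates, T0 overlapped T3, and T6 overlapped T9. From T0 to T3 the difference was 0.71 (log2, SE 0.26) and just missed the threshold (adjusted p = 0.0502); it was called without T0 plate 3 (1.01, adjusted p = 0.0159), without T3 plate 2 (0.83, adjusted p = 0.0434), and by DESeq2 (0.70, adjusted p = 0.0452). It was not called in the other alternatives, among them the kind of plate as a term (0.46, adjusted p = 0.15) and the fit without T0 plate 1 (0.52, adjusted p = 0.175). At T9, *Tnfaip6* was 2.50-fold above T0 (log2 1.32, SE 0.26, adjusted p = 0.000811). *Ptx3*, which encodes the TSG-6-binding pentraxin 3, was 4.12-fold higher at T9 than at T6 (adjusted p = 0.00941) and 4.20-fold higher than at T0 (adjusted p = 0.000173). *Itih5*, a relative of the inter-alpha-inhibitor heavy chains, was 4.82-fold higher at T9 than at T0 (adjusted p = 0.000448), and 1.89-fold higher in plates with more reads without a feature (adjusted p = 0.0106). These were 2 of the 7 genes of that list that were tested.

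*Prg4* was low at T0 and higher in all treated plates. It had 21, 3, and 8 UMIs in T0 plates 1, 2, and 3 (4.51, 0.695, and 2.15 CPM). It then measured 51.0, 38.0, and 40.1 CPM at T3, 144, 40.4, and 71.6 at T6, and 32.6, 15.1, and 48.7 at T9. T6 plate 1 had the highest value, and the ranges of T3, T6, and T9 overlapped. *Prg4* rose 20.3-fold to T3 (log2 4.34, SE 0.54, adjusted p = 4.15e-05) and was 17.4-fold above T0 at T9 (log2 4.12, SE 0.54, adjusted p = 3.38e-05). The size rests on few T0 UMIs: without T0 plate 1, which held 21 of 32, the log2 values were 5.15 and 4.92, and without the marker-holding cells they were 5.27 and 5.01. Later steps were not called, at 0.93 (SE 0.42, adjusted p = 0.248) for T6 versus T3 and -1.15 (SE 0.42, adjusted p = 0.195) for T9 versus T6. Within plates with more reads without a feature, *Prg4* averaged 38.0 CPM at T3 and 108 at T6, and within plates with fewer it averaged 45.5 and 40.4 CPM.

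*Prg4* UMIs were held by few cells. At T6, 156 of 1149 cells had a *Prg4* UMI, and the 10 highest cells of the 3 plates together held 47.2% of all 989 UMIs, the 30 highest 77.6%. For *Tnfaip6*, the 10 highest T6 cells held 17.8% of 387 UMIs, and for *Vcan* 7.42% of 5797 UMIs. For *Has2* they held 24.4%, but of only 193 UMIs, and a low total by itself raises this share. In single plates, the 10 highest cells held from 71.7% of the *Prg4* UMIs (T6 plate 1) to 93.6% (T9 plate 2) at T3 to T9, and in T6 plate 1 a single cell held 103 of 561 UMIs. Thinned to 3000 UMIs per cell, 0.377% ± 0.434 of T0 cells held a *Prg4* UMI, against 4.52% ± 0.255 at T3, 7.17% ± 1.80 at T6, and 3.07% ± 1.26 at T9 (mean ± SD over 3 plates).

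**Figure D2:**
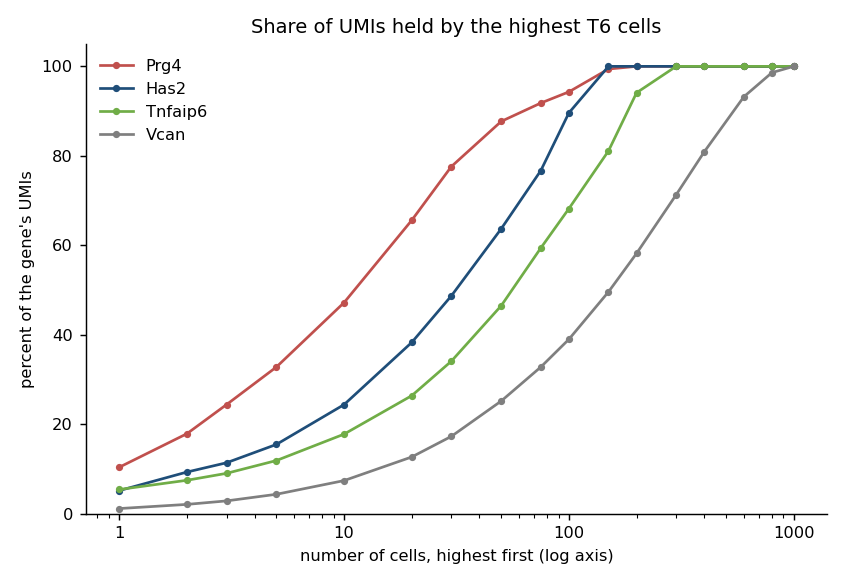
Cumulative percent of a gene's UMIs (vertical axis) held by its highest T6 cells (horizontal axis, log scale), over the 3 T6 plates together, for *Prg4*, *Has2*, *Tnfaip6*, and *Vcan*. The *Prg4* line rises first, with 47.2% of UMIs in 10 cells, and the *Vcan* line last, with 7.42%.

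The enzymes that act on versican and its chains were also tested. Of 6 lectican-cleaving proteases, all tested, 3 rose and none fell from T0 to T3, and 4 rose from T0 to T9. *Adamts20* rose 11.9-fold to T3 (adjusted p = 4.52e-06), *Adamts5* 5.94-fold (adjusted p = 5.48e-05), and *Adamts9* 3.83-fold (adjusted p = 0.000249), and *Adamts4*, *Adamts9*, and *Adamts20* were also higher in plates with more reads without a feature, by 2.84-fold (adjusted p = 0.000513), 1.55-fold (adjusted p = 0.00856), and 1.52-fold (adjusted p = 0.0096). Of 11 genes for chondroitin sulfate chains, 8 were tested, 2 rose to T3 and 5 to T9. *Csgalnact1*, which starts the chain, was 15.0-fold above T0 at T9 (adjusted p = 4.02e-05) and *Chst11*, a sulfotransferase, 3.06-fold (adjusted p = 5.46e-05). The size for *Csgalnact1* rests on 2, 4, and 5 UMIs in T0 plates 1, 2, and 3, and its T9 plates measured 6.79, 6.42, and 17.9 CPM. Over the 7 lists, 11 of 29 tested genes were called from T0 to T3 (37.9%, against 33.2% of all genes) and 18 of 29 from T0 to T9 (62.1%, against 45.2%). The lists were chosen with earlier results of these data known, and the difference between these shares was not tested.

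Cells with at least 1 *Scx* UMI were then compared with the other cells of the same plate, over the 9 plates of T3, T6, and T9 (2289 positive and 1158 negative cells), to ask which members accompany the tendon factor. *Tnfaip6* was the member called, 1 of 4 tested, where 2.57% of 10111 genes were called. Its summed level ranged from 28.5 to 60.9 CPM in Scx-positive cells (median 38.0) and from 12.4 to 31.1 CPM in Scx-negative cells (median 19.4), and it was higher in the positive cells of 8 of 9 plates. The exception was T3 plate 3, at 30.2 and 31.1 CPM. The fold was 2.09 (log2 1.06, SE 0.18, adjusted p = 0.000836). It remained called with cells thinned to 3000 UMIs (0.82, adjusted p = 0.0131); positive cells were deeper in UMIs, with plate medians of 4744 to 10909 against 4166 to 8408. Markers of other cells moved with this division: pluripotent markers summed to 0 to 170 CPM in positive cells (median 59.9) and 0 to 474 CPM in negative cells (median 173), with *Sox2* and *Nanog*, 2 of 4 tested, lower in positive cells. Epithelial markers had medians of 20.9 and 74.6 CPM, with *Cdh1* and *Krt18*, 2 of 3 tested, lower. Without cells that held a UMI of a pluripotent marker, *Epcam*, or *Cdh1*, a choice made after the data were seen, *Tnfaip6* was still called (0.98, adjusted p = 0.00115).

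*Prg4* was higher in Scx-positive cells of 7 of 9 plates, with a median of 51.7 CPM against 18.6, and was not called (log2 0.91, SE 0.33, adjusted p = 0.186). T6 plate 2, with 24.5 CPM in positive and 102 CPM in negative cells, and T9 plate 2, with 11.4 and 17.0 CPM, went the other way. Without T6 plate 2 *Prg4* was called (1.41, adjusted p = 0.00131). It was also called with thinned cells (1.05, adjusted p = 0.00716), and not without the marker-holding cells (0.70, adjusted p = 0.359). *Vcan* differed by 0.05 on the log2 scale (95% interval -0.16 to 0.27) and *Has2* by 0.40 (interval 0.03 to 0.76, adjusted p = 0.395), and with thinned cells both signs turned, to -0.05 and -0.26. *Vcan* was higher in Scx-positive cells of 5 of 9 plates, among them T3 plate 1 (216 against 84.7 CPM). It was lower in those of T9 plates 2 (88.5 against 149 CPM) and 3 (291 against 380 CPM).

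*Tnmd* encodes tenomodulin, a membrane protein of mature tenocytes, and 302 cells of T6 and T9 held a *Tnmd* UMI against 1994 that did not. These cells are also part of the division by *Scx*, and *Scx* was 2.90-fold higher in Tnmd-positive cells (adjusted p = 2.08e-09, edgeR quasi-likelihood test). Calls by *Scx* and by *Tnmd* are therefore not independent of each other. Tnmd-positive cells were deeper, with plate medians of 7734 to 12520 UMIs against 7029 to 10071. Of 4 members tested, *Tnfaip6* was higher and *Vcan* lower in Tnmd-positive cells, where 2.97% of 10199 genes were called. *Tnfaip6* measured 68.1, 77.5, and 96.7 CPM in the positive cells of T6 plates 1, 2, and 3 and 77.0, 98.2, and 96.0 CPM in those of T9. In the negative cells of the same plates it measured 28.5, 28.0, and 24.1 CPM and 28.6, 21.0, and 32.6 CPM. The positive and negative sums did not overlap, and the fold was 3.12 (log2 1.64, SE 0.16, adjusted p = 2.5e-07). With thinned cells it was 1.83 on the log2 scale (adjusted p = 1.69e-06).

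*Vcan* was lower in the Tnmd-positive cells of all 6 plates. It measured 406 against 577 CPM, 151 against 230 CPM, and 587 against 725 CPM in T6 plates 1, 2, and 3. In T9 plates it measured 136 against 160 CPM, 68.0 against 137 CPM, and 305 against 348 CPM. The fold was 1.34 (log2 -0.43, SE 0.10, adjusted p = 0.0107). This call was lost without T6 plate 1 (-0.40, adjusted p = 0.0703), without T6 plate 2 (-0.38, adjusted p = 0.052), and with thinned cells (-0.47, adjusted p = 0.0556), with the direction kept. Since both sums come from the same plate, the kind of plate does not differ between them.

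*Cd44* did not pass the filter on low counts here. Its summed level was higher in the Tnmd-positive cells of 6 of 6 plates, at 5.34 to 22.7 CPM against 1.27 to 5.52 CPM. These levels rest on 4 to 12 UMIs per plate in positive cells and 4 to 15 in negative cells. *Cd44* was called in the fit without that filter (log2 1.69, adjusted p = 0.0116), where 1.69% of 26295 genes were called. *Prg4* (log2 0.60, interval -0.02 to 1.22) and *Has2* (0.16, interval -0.42 to 0.74) were not called. None of the 4 members in either division of the cells had an effect that differed between time points at an adjusted p under 0.05 in an interaction test. The lowest value was 0.402, for *Vcan* by *Scx* at T9 against T3, with a log2 difference of -0.72 (interval -1.19 to -0.26). For *Tnfaip6* the same difference was 0.93 (interval 0.08 to 1.78, adjusted p = 0.615). Of the wider lists, 0 of 25 tested genes were called by *Scx* and 1 of 26 by *Tnmd*, *Chsy1*, a chondroitin synthase (1.36-fold higher, adjusted p = 0.0186).

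**Figure D3:**
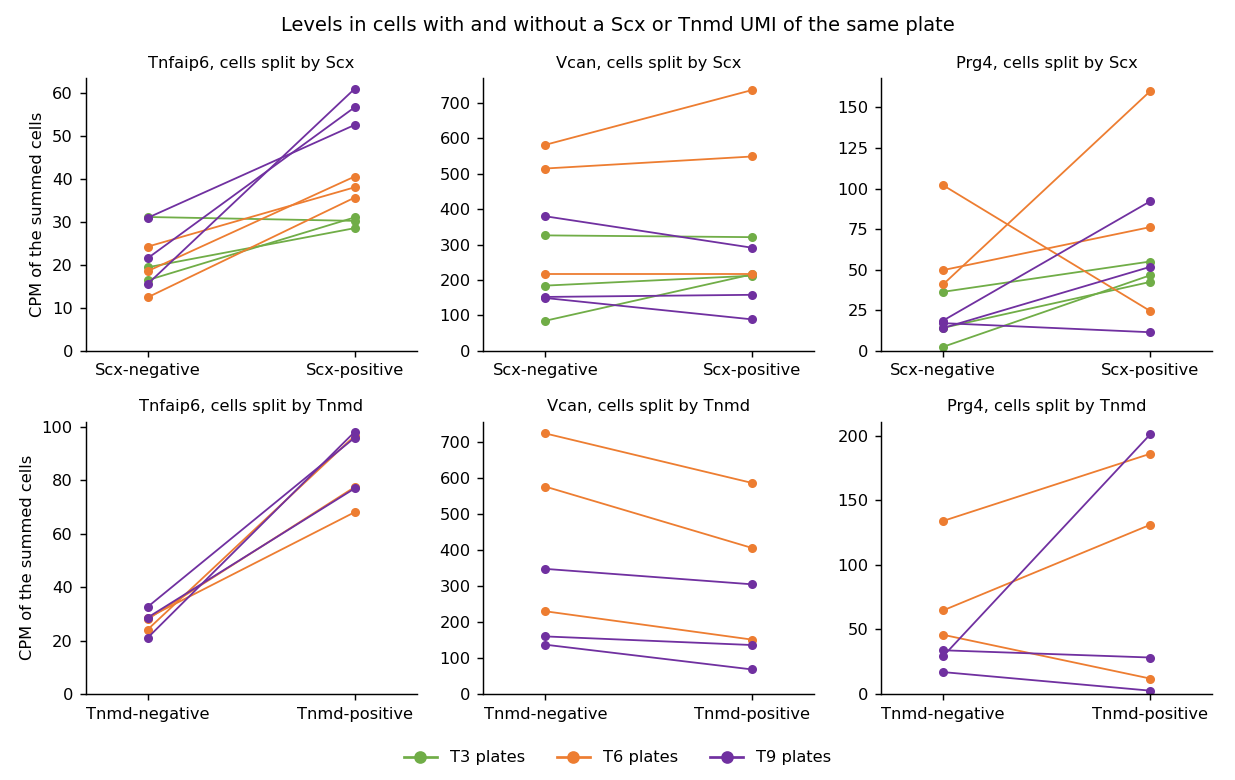
CPM (vertical axes) of *Tnfaip6*, *Vcan*, and *Prg4* in the summed cells of each plate without (left) and with (right) a *Scx* UMI (top row, 9 plates) or a *Tnmd* UMI (bottom row, 6 plates), with a line per plate. *Tnfaip6* rises in 8 of 9 and 6 of 6 plates, *Vcan* falls in 6 of 6 plates by *Tnmd*, and *Prg4* lines cross.

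In Achilles tendon, the bulk samples compare the levels of these genes between Wt and homoKO animals. *Scx* itself measured 103 and 81.3 CPM in the Wt samples and 23.1 and 25.1 CPM in the homoKO samples (log2 -1.88, SE 0.17, adjusted p = 0.000429); reads remained, and whether they lie in the removed part was not examined. *Prg4* and *Hapln1* were lower in homoKO tendon, 2 of 8 members tested, where 3.84% of 14602 genes were called. In bulk tissue, fewer cells of a type and less RNA per cell cannot be told apart.

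*Prg4* had 2555 and 2030 reads in the Wt samples and 963 and 643 in the homoKO samples, which is 228, 166, 77.7, and 54.6 CPM. It was 2.88-fold lower (log2 -1.53, SE 0.20, adjusted p = 0.00296). *Hapln1* had 95 and 139 reads in Wt and 27 and 16 in homoKO, or 8.49, 11.3, 2.18, and 1.36 CPM. It was 5.45-fold lower (log2 -2.45, SE 0.44, adjusted p = 0.0159), and without Wt sample 2 it was not called (-2.16, adjusted p = 0.0917). For both genes the genotypes did not overlap.

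*Vcan* had 1621 and 1324 reads in Wt and 1930 and 2383 in homoKO (145, 108, 156, and 202 CPM). The homoKO samples were the higher, and the difference was not called (log2 0.56, SE 0.19, adjusted p = 0.164), although it was in the fit without a filter on low counts (adjusted p = 0.0307). *Tnfaip6* measured 15.2 and 9.55 CPM in Wt and 5.89 and 8.91 CPM in homoKO (log2 -0.68, SE 0.35, adjusted p = 0.36). *Cd44* measured 72.8, 61.7, 55.7, and 62.2 CPM in the same order, with an interval of the difference of -0.45 to 0.17 on the log2 scale. *Has1*, *Has2*, and *Has3* had 10 to 69 reads per sample, with genotypes that overlapped, and were not called (adjusted p = 0.514, 0.853, and 0.96).

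Per exonic length, *Prg4* was the most abundant member in Wt tendon, at a mean of 153 TPM ± 40.7 (SD, n = 2), followed by *Cd44* at 32.9 ± 5.21, *Vcan* at 29.1 ± 7.19, and *Tnfaip6* at 24.1 ± 8.74, which did not differ beyond their spread. *Hapln1* measured 5.54 ± 0.896 TPM and the synthases 3.56 ± 1.98 (*Has2*), 2.44 ± 1.23 (*Has1*), and 1.36 ± 1.11 (*Has3*), with spreads that overlapped among the synthases. In homoKO tendon *Prg4* was at 47.4 ± 9.74 TPM, *Vcan* at 38.3 ± 8.63, and *Cd44* at 26.8 ± 3.24. TPM values here assume reads spread over all annotated exons.

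Of the 40 tested genes of the 7 wider lists, 3 were called, all lower in homoKO tendon (7.5%, against 3.84% of all genes). *Acan*, the cartilage lectican that binds hyaluronan like versican, measured 104 and 104 CPM in Wt and 16.1 and 9.93 CPM in homoKO (7.75-fold lower, adjusted p = 0.000137). *Adamts9* was 2.22-fold lower (adjusted p = 0.00634), and *Dse*, which epimerizes glucuronic to iduronic acid in dermatan sulfate, was 1.78-fold lower (adjusted p = 0.0457). All 7 precursor genes were tested and none was called.

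Markers of other cells moved with genotype. Chondrocyte markers (6 genes) summed to 2258 to 2453 CPM in Wt and 98.6 to 114 CPM in homoKO, with 3 of 5 tested genes lower and *Matn1* at 0 in all samples. Tenocyte markers summed to 151894 to 165088 CPM in Wt and 72515 to 83751 CPM in homoKO, with 4 of 8 lower and *Col14a1* higher. Most of these sums came from *Col1a1* and *Col1a2*, which were not called (adjusted p = 0.148 and 0.142). Skeletal muscle markers (6 genes) summed to 30474 to 56376 CPM in Wt and 68545 to 69837 CPM in homoKO, with none called. Adipocyte markers summed to 384 to 1368 CPM and 85.4 to 276 CPM, endothelial markers to 676 to 692 CPM and 433 to 507 CPM, leukocyte markers to 170 to 283 CPM and 214 to 259 CPM, epithelial markers to 1.31 to 1.61 CPM and 12 to 18 CPM, and pluripotent markers to at most 1.70 CPM. Of these, *Plin1* (4.43-fold, adjusted p = 0.0313) and *Kdr* (1.56-fold, adjusted p = 0.0444) were lower in homoKO tendon, *Krt8* (35.4-fold, adjusted p = 0.0121) and *Krt18* (11.9-fold, adjusted p = 0.0154) were higher, and no leukocyte marker was called. The part of these cells in the *Prg4* and *Hapln1* differences was not tested. In the plates, chondrocyte markers summed to 13.7 to 17.0 CPM at T0 and at most 6.97 CPM later.

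**Figure D4:**
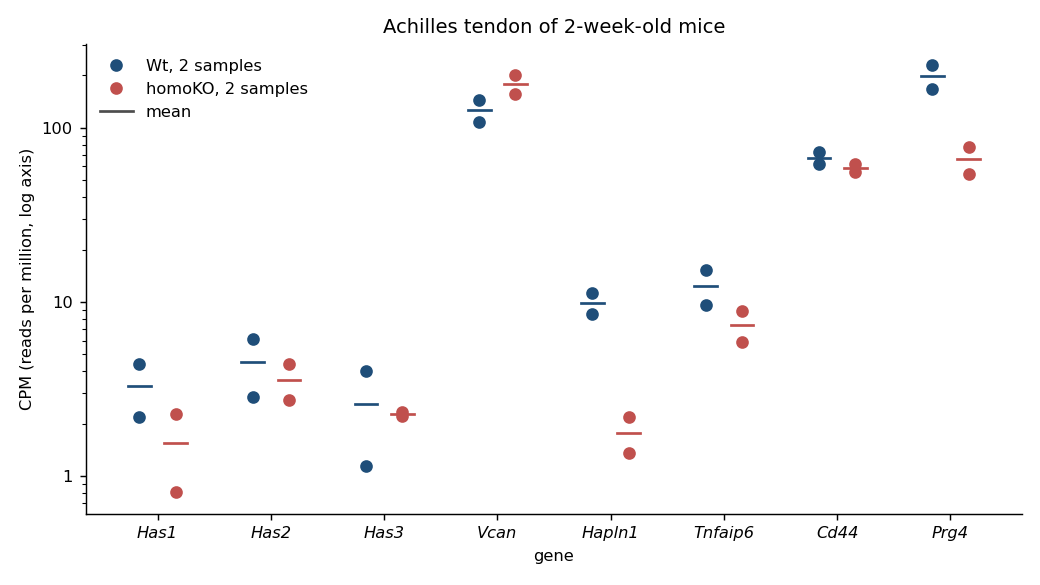
CPM on a log axis (reads of the gene per 1000000 reads) of the 8 genes in 2 Wt and 2 homoKO Achilles tendon samples, with a point per sample and a bar at the mean of each genotype. *Prg4* and *Hapln1* are lower in both homoKO samples than in both Wt samples.

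The culture and tendon comparisons share no samples, and their values are set side by side. *Hapln1* fell from T0 to T9 and was lower in homoKO tendon. *Prg4* rose from T0 to T9 and was lower in homoKO tendon. *Has2*, *Cd44*, and *Tnfaip6*, called in the culture at T9 against T0, were not called in homoKO tendon, where *Tnfaip6* had an interval of -1.36 to -0.00 on the log2 scale. That interval uses a normal multiplier of the SE, and p before adjustment was 0.0799 (edgeR quasi-likelihood test). Differences between the 2 systems were not tested.

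**Figure D5:**
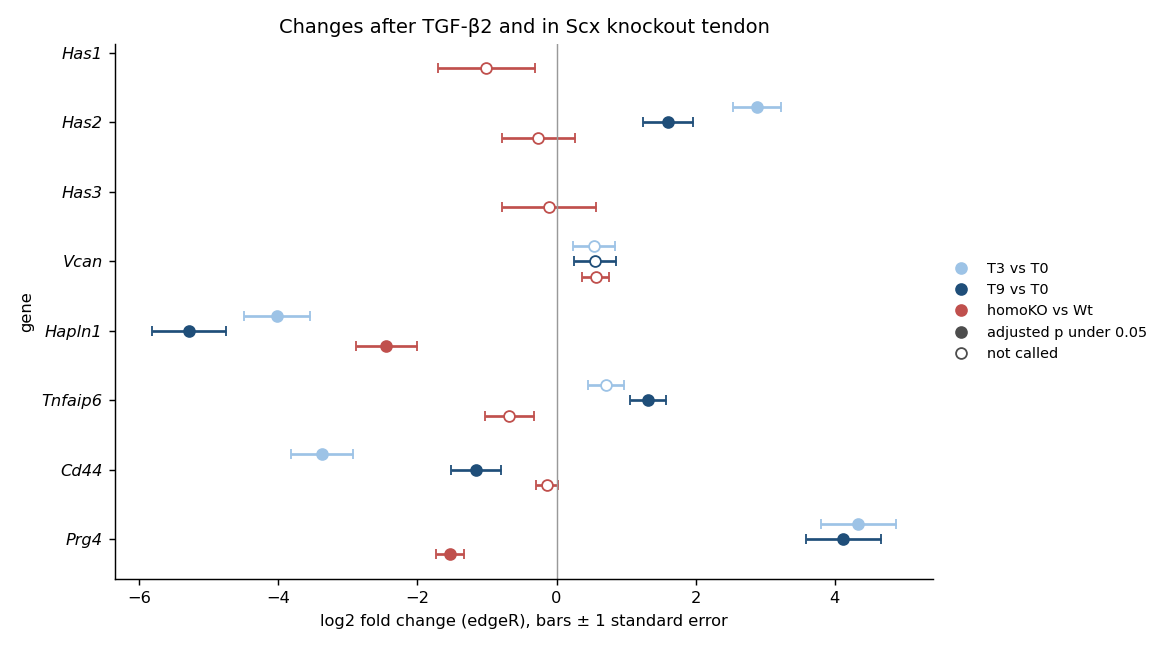
log2 fold changes from edgeR (horizontal axis, bars ± 1 SE) for T3 versus T0 and T9 versus T0 (6 members tested) and for homoKO versus Wt tendon (8 members), with filled points for an adjusted p under 0.05. *Prg4* and *Has2* lie right of 0 and *Hapln1* and *Cd44* left of 0 in both culture comparisons, and *Prg4* and *Hapln1* lie left of 0 in homoKO tendon.

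Genes whose log2 CPM over the 12 plates was among the most like that of a member, by Pearson correlation, are given as a description, since plates of 1 time point share treatment and the kind of plate. For *Vcan* they were *Clmp* (r = 0.979) and *Rapgef6* (0.948), for *Hapln1* *Frzb* (0.983) and *Trim28* (0.972), and for *Has2* *Ppp1r3d* (0.966), *Pkia* (0.957), and *Pgm2* (0.953). For *Cd44* they were *Smg8* (0.950), *Fhl1* (0.948), and *Scara3* (0.945), for *Prg4* *Hlx* and *Emilin3* (0.972 each), and for *Tnfaip6* *Sec22b* (0.954), *Ppp1r36* (0.953), and *Srp72* (0.950).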

How the data were processed

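Single cells were sorted into 384-well plates and sequenced with a modified CEL-Seq2 protocol, which reads the 3′ end of transcripts with UMIs. The authors used Trim Galore, HISAT2 2.2.1 (GRCm38), featureCounts, and UMI-tools 1.0.1, and deposited a raw table of UMI counts, with genes in rows and wells in columns. The bulk tendon file holds read counts per gene that the authors deposited without normalization (HISAT2 2.0.4, featureCounts 1.5.0, GRCm38). Their sorting gate removed doublets, and no doublet caller was run here. The 384 well barcodes are shared by all 12 plates by design. The number of cells that the study states after its own filter is slightly lower than the number used here.

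UMIs of wells with at least 200 genes were summed per plate, or per plate and *Scx* or *Tnmd* status, and tested with edgeR 4.0.16 in R 4.3.3 (filterByExpr, TMM, quasi-likelihood test, Benjamini-Hochberg adjustment). All 12 plates shared a single fit. Divided cells were fitted with the plate as a term. DESeq2 1.42.0 was an alternative. The number of UMIs per plate limits precision for low genes. The Poisson intervals of *Has1* and *Has3* cover counting error alone. Intervals of log2 differences come from the SE of the fit, which includes the spread between plates or samples. They use a normal multiplier, so with few samples they are narrower than the test implies. Symbols were found for 29528 of 29629 and 47224 of 47729 identifiers (GENCODE M21). Entries outside Ensembl, 3 in all with 0.0642% of UMIs, were left out. Scripts were tested on simulated data. Pairs of replicates differed beyond sampling noise (chi-square per gene 2.98 to 50.7). No label ties plates to separate cultures or tendon samples to single animals, so p-values measure the spread between these samples, which may be technical.

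The members, lists, and tests were chosen with earlier results of these data known. Named are all members, for each list up to 3 called genes by adjusted p in the comparisons described, the 3 genes most like each tested member (some of these are not reported here), and *Scx* and *Tnmd*. A few values of genes outside this rule (*Acan* in plates, cell type markers) were added after they were seen. Alternatives were another tool, scaling, no filter on low counts, a replicate block, the kind of plate as a term, 1000 genes per well, thinning to 3000 UMIs, at least 2 UMIs for a positive cell, and leaving out each library.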

Additional observations from a re-analysis of the deposited data

How the results depend on the processing

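Of 555 comparisons of a result with an alternative, 493 kept direction and side of the threshold, 16 lost a call, 26 gained one, and 20 turned in sign, in values that were not called. Members called rose from 0 to 2 (DESeq2), 3 (no filter), and 2 (kind of plate as a term) in T6 versus T3, from 0 to 2, 2, and 1 in T9 versus T6, and from 1 to 2 by *Scx* (no filter, thinned cells), and fell from 2 to 1 by *Tnmd* (thinned cells, with 3 members tested); the cause was not tested. Leaving out each library gave 4 to 5 (T3 versus T0), 0 to 2 (T6 versus T3 and T9 versus T6), 4 to 5 (T9 versus T0), 1 to 2 (kind of plate, homoKO, *Scx*, and *Tnmd*). *Vcan* and *Has2* were called in T6 versus T3 without T6 plate 2, *Vcan* in T9 versus T6 without T6 plate 2 or T9 plate 3, and *Cd44* there without T9 plate 3. Signs turned for *Hapln1* in T9 versus T6 (0.08 without marker-holding cells; -2.07 to 0.47 without a library), *Has2* in T9 versus T6 (-0.48 to 0.12), the kind of plate (*Hapln1* -0.96 to 0.05, *Prg4* -0.02 to 0.77), homoKO (*Has2* -0.68 to 0.32, *Has3* -0.72 to 0.98), *Vcan* by *Scx* (-0.05 thinned; -0.10 without marker-holding cells; -0.04 to 0.14), *Has2* by *Scx* (-0.26 thinned), and *Has2* by *Tnmd* (-0.03 with at least 2 UMIs; -0.25 without marker-holding cells; -0.01 to 0.33).

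Same-numbered plates deviated together in 4 of 18 pairs (correlation over 0.1, range -0.56 to 0.52), and the tendon samples correlated at 0.07, so numbers were not taken to pair samples. With a replicate block, 4, 0, 0, and 5 members were called over the time comparisons and 2 in homoKO tendon, with no call changed; *Has3* turned to 0.08. Over all genes, calls in T6 versus T3 went from 567 to 899 (DESeq2), 1483 (kind of plate), 1010 (no filter), and 291 to 890 without a library. Those in T9 versus T6 went from 217 to 568, 813, and 684, to 113 with the block, and to 35 to 852 without a library. Those in homoKO went from 560 to 1108 (block) and 1415 (no filter), those by *Scx* from 260 to 507 (no filter), and those by *Tnmd* from 303 to 501 (at least 2 UMIs), 201 (without T6 plate 2), and 188 (without T9 plate 2). Depth limits *Has1* and *Has3* in all plates and *Cd44* and *Hapln1* in the divided cells.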
